A study of Mus musculus with 12 samples.

Results

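The tumour suppressor p53 (Trp53) and 9 genes that it is known to activate, Mdm2, Cdkn1a, Ccng1, Bax, Bbc3, Phlda3, Trp53inp1, Zmat3 and Sesn1, were followed through an RNA-seq series of mouse embryonic stem cells (mESC). The 10 genes were picked by symbol from a table of 35976 genes, and all 10 were among the 15341 genes with enough reads to be tested. The genotypes WT, PROSER1 KO and KO+Rescue were sequenced as mESC, kept in serum and LIF with inhibitors of MEK and GSK3, and at day 2, that is 48 hours into N2B27 medium with neither LIF nor the inhibitors listed, in which the cells leave pluripotency towards neuroectoderm. PROSER1 binds the TET enzymes, the oxidases of methylated cytosine. Every group of the 6 held 2 libraries, called A and B here after the letters in the column names. The labels name them biological replicates but not how cultures were separated, and p-values here cover the variation among these libraries alone, which may be technical. All lines came from Tet2 fl/fl blastocysts, and no Cre is named for them. The KO was 1 clone grown from a single cell after cutting in exon 1 of Proser1. KO+Rescue was made from it by PiggyBac insertion of a FLAG-tagged Proser1 coding sequence, blasticidin selection and subcloning, so differences from Proser1 and differences between clones cannot be told apart. The columns of the KO and KO+Rescue libraries carry a line code that was read as these genotypes, which no label states.

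In an unstressed cell p53 is made and destroyed all the time, because Mdm2, itself a p53 target, marks the protein for degradation. Stress such as DNA damage stabilises the protein, which then binds paired decamers near its target genes and raises their transcription. Cdkn1a (p21) and Ccng1 act on the cell cycle, Bax, Bbc3 (PUMA), Phlda3, Trp53inp1 and Zmat3 take part in or favour cell death, and Sesn1 restrains growth signalling under stress. Embryonic stem cells hold abundant p53 and arrest weakly in response to it. Because the protein is controlled mainly after translation, the level of Trp53 RNA is not a measure of p53 activity.

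The letters that p53 reads were present in front of several of these genes, and the stretches most like the p53 consensus are shown to let the target genes be compared. RefSeq promoter windows of GRCm38.p6 were found for 8 of the 10 genes, 12 windows in all, with none for Trp53inp1 or Zmat3. The 250 bases before each start site were compared with the p53 consensus, a pair of decamers without a spacer that reads the same on both strands. In the lines below, 5′ to 3′ in the direction of the gene, the 20 bases that match best are in capitals.
Cdkn1a, chr17:29090918-29090957, plus strand: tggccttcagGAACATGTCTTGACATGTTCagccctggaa
Ccng1, chr11:40755452-40755491, minus strand: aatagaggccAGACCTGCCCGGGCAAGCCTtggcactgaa
Bax, chr7:45467080-45467119, minus strand: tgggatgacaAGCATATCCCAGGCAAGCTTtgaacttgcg
Bbc3, chr7:16309476-16309515, plus strand: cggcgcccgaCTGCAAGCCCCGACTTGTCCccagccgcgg
The Cdkn1a and Ccng1 stretches each departed from the consensus at 1 base, which was reached in 0.0761% of the 32851 windows of the same length in the genome. They began 51 and 195 bases before the start sites of their windows. The Bax and Bbc3 stretches shown departed at 3 bases, as did the best stretches of one Sesn1 window and of Trp53. The best stretch of the other Cdkn1a window departed at 5 bases and that of the other Sesn1 window at 6. Those of the other Bbc3 windows departed at 5 and 8. Of the 12 windows 6 (50%), 1 in each of 6 genes, held a stretch with at most 3 departures, as did 5.32% of all windows. The best stretches of Mdm2 and Phlda3 had 5 departures, a number that 71.1% of all windows reached or bettered. A match of letters was read here as a description only.

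Depth differed by at most 1.72 times. The libraries held 38634668 to 66450803 assigned read pairs, and the lowest count of any of the 10 genes in any library was 168. Ribosomal protein genes took 12.4 to 23.3% of the reads, the least in WT library A at both stages and the most in KO+Rescue mESC library B. The summed normalised count of 8 mESC markers ran from 162680 to 223640 in mESC and from 52647 to 91417 at day 2, while that of 4 neuroectoderm markers ran from 287 to 363 and then from 2111 to 4383. Summed levels of 6 fibroblast markers were 339 to 398 in WT mESC and 94.4 to 158 in the other mESC, and at day 2 they were 1059 to 1130 in WT, 1370 to 1537 in KO and 668 to 714 in KO+Rescue. Those of 4 mesendoderm markers were 1529 and 1530 in WT mESC and 765 to 915 in the other mESC, and at day 2 they were 138 to 185 in WT, 411 to 428 in KO and 93.9 to 121 in KO+Rescue. Primitive endoderm markers, 4 in number, summed to 53.6 to 68.4 in WT, 113 to 137 in KO and 63.9 to 71.6 in KO+Rescue at day 2, and to at most 32.1 in mESC. The mESC fibroblast sum was mostly Thy1, whose mean was 339 for WT against 114 for KO and 93.9 for KO+Rescue. Mean Lum, Dcn and Postn there were at most 2.02. Of the mESC mesendoderm markers, T, Eomes and Mixl1 were highest in WT. Gsc went the other way, with a mean of 20.9 for WT against 37.9 for KO and 56.8 for KO+Rescue. These sums alone do not give amounts of cells of a type. The part of cells of these types and of the ribosomal share in the values below was not tested. Normalised counts of Proser1 in mESC were 889 and 550 (WT) and 576 and 502 (KO), and at day 2 they were 829 and 685 (WT) and 872 and 1067 (KO). A guide in exon 1 need not lower the RNA, so these values do not check the KO label. In KO+Rescue Proser1 reached 2829 to 3090 in all 4 libraries, above every other library.

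Chromosome 11, which carries Trp53 and Ccng1, stood apart between the genotypes. The median log2 deviation of its 1199 tested genes from their mean over all libraries, less that of all genes, was 0.11 to 0.15 in the 4 WT libraries and -0.11 to -0.03 in the 8 KO and KO+Rescue libraries. On the other chromosomes the WT values overlapped those of the other genotypes. In KO against WT the median change over chromosome 11 was -0.27 in mESC and -0.17 at day 2 on the log2 scale, against ranges of -0.12 to 0.09 and -0.02 to 0.09 over the other chromosomes. The part of this shift in the values of Trp53 and Ccng1 was not tested, nor that of chromosomes 1 and 3 in those of Phlda3 and Zmat3.

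**Figure D1:**
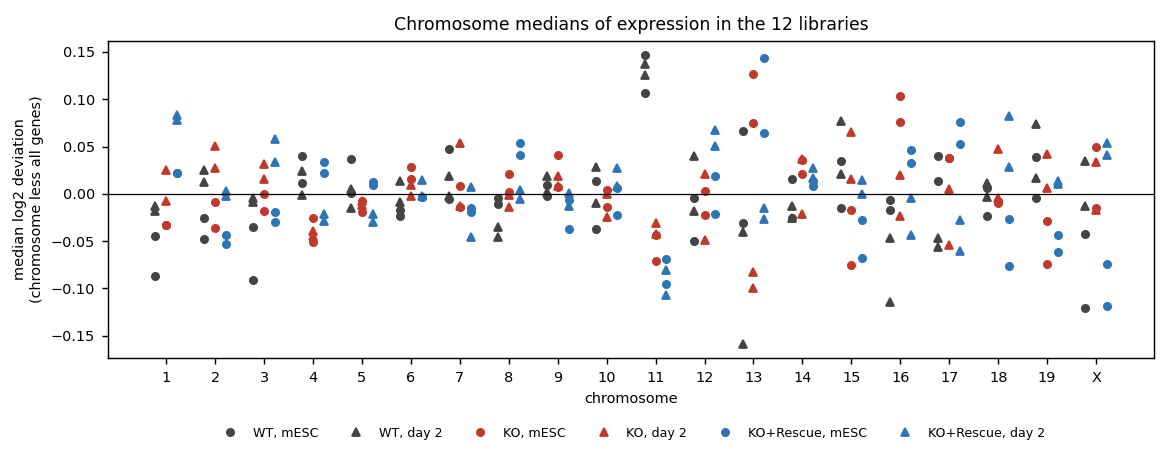
Median log2 deviation of the tested genes of each chromosome from their mean over the 12 libraries, less the median over all tested genes, by library. Colours give the genotype, circles mESC and triangles day 2. The 4 WT libraries sit between 0.11 and 0.15 on chromosome 11, where the other 8 sit between -0.11 and -0.03.

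Levels of the 10 genes differed widely within a library. Per kilobase of exon, Bax had the highest normalised count in WT mESC, 6869 ± 518 (SD, n = 2), followed by Ccng1 at 3880 ± 696 and Trp53 at 1932 ± 446. Mdm2 at 857 ± 86.6, Trp53inp1 at 829 ± 65.0 and Phlda3 at 685 ± 29.0 came next, and of these Mdm2 and Trp53inp1 differed by less than their spread. Cdkn1a stood at 391 ± 38.7, Sesn1 at 280 ± 19.9, Zmat3 at 111 ± 21.2 and Bbc3 at 84.7 ± 11.4, with the last pair within about 1 SD of each other. At day 2 in WT Bbc3 stood above Sesn1, at 232 against 204, and Phlda3, at 1263 ± 13.4, above Trp53, at 954 ± 206. With the longest transcript of each gene as the length, the order of Phlda3 and Trp53 at day 2 in WT turned, to 1424 ± 15.1 and 1736 ± 375. In KO at day 2 Phlda3 stood at 1844 ± 108 and Trp53 at 888 ± 46.1, an order that the longest transcript kept.

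**Figure D2:**
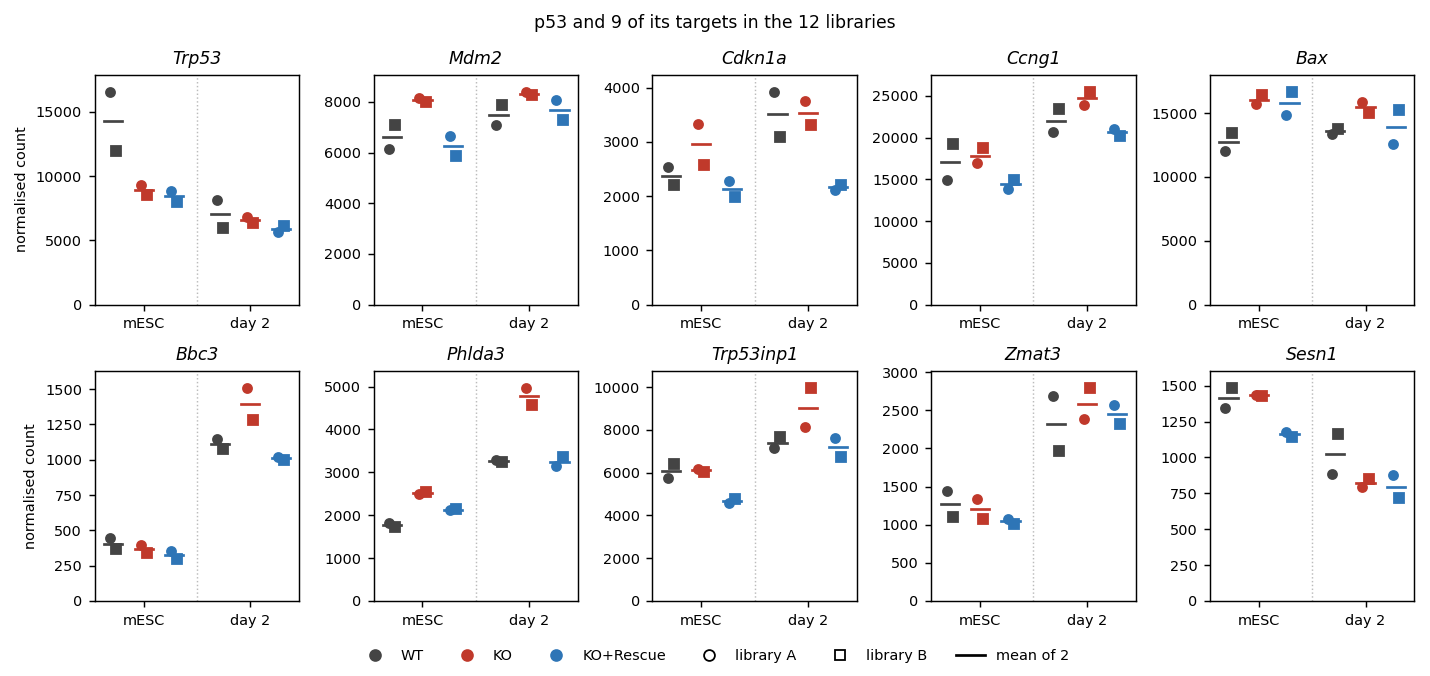
Normalised counts of Trp53 and 9 p53 target genes in each library, with mESC to the left and day 2 to the right of the dotted line. Circles and squares are libraries A and B, bars the mean of the 2, and every axis starts at 0. Bbc3 ran from 299 to 445 in mESC and from 1000 to 1508 at day 2, and Cdkn1a at day 2 was 2108 and 2213 in KO+Rescue against 3088 to 3927 in the other genotypes.

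Most calls came with stage. In each genotype 5 of the 10 genes rose and 2 fell at day 2 (limma, adjusted p under 0.05), with 51.9% of all tested genes called for WT, 60.1% for KO and 58.2% for KO+Rescue, so the share of members called, 7 of 10, was not far from that of other genes. Ccng1, Phlda3, Zmat3 and Bbc3 rose in every genotype, while Trp53 itself and Sesn1 fell in every one. Cdkn1a rose in WT, and Trp53inp1 in KO and KO+Rescue. Median log2 changes of the 10 were 0.33 in WT cells, 0.37 in KO and 0.41 in KO+Rescue, beside -0.02, 0.02 and -0.03 over all genes. Medium, inhibitors and cell state change together between the stages, and in these bulk samples fewer cells of a type and less RNA per cell cannot be told apart. With library totals made equal in place of the authors' size factors, the median of all genes itself moved to 0.21, 0.35 and 0.34, and the split of the called genes was 7 higher and 1 lower (Trp53) in WT, 7 higher and 1 lower (Sesn1) in KO and 6 higher and 0 lower in KO+Rescue.

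**Figure D3:**
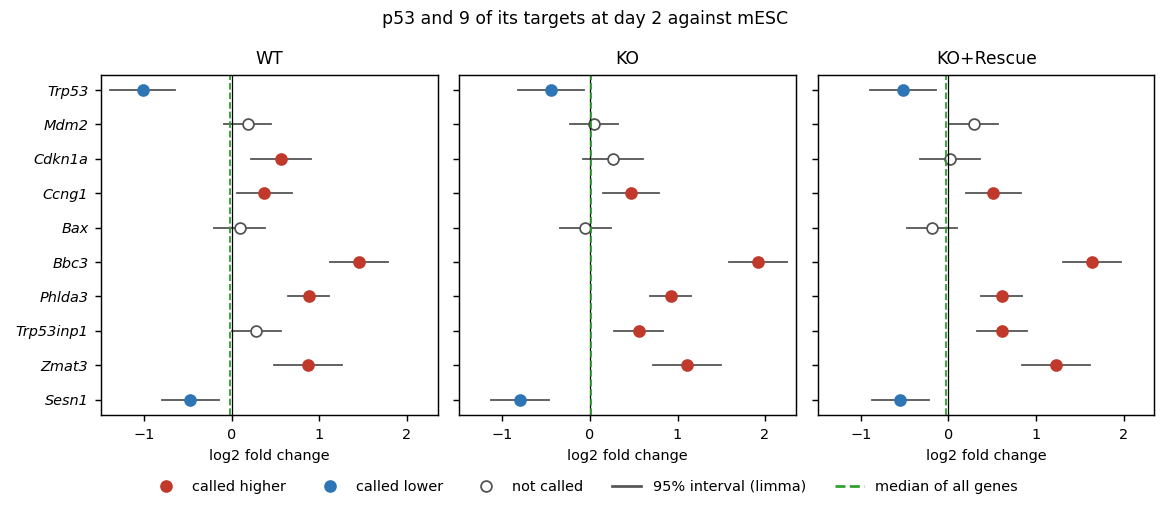
Log2 fold change at day 2 against mESC in WT, KO and KO+Rescue, with 95% intervals of the limma fit. Filled red and blue points are genes called higher and lower, open points were not called, and the dashed green line is the median of all tested genes. Bbc3 lies farthest to the right in each genotype, at 1.46, 1.92 and 1.64, and Trp53 or Sesn1 farthest to the left.

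Between genotypes few of the genes passed the test. In KO against WT, 2 of the 10 were called in mESC, Phlda3 higher and Trp53 lower, where 9.48% of all genes were called, and Phlda3 alone, again higher, at day 2, where 5.21% were. The median log2 changes were 0.05 and 0.17 beside -0.04 and 0.02 over all genes. With equal totals Trp53 alone was called in mESC and 0 of the 10 at day 2. In KO+Rescue against KO, 0 of 10 were called in mESC (limma, 1.51% of all genes), with 4 at an unadjusted p under 0.05, and edgeR and DESeq2 also called 0, each with 5 at an unadjusted p under 0.05. At day 2 Cdkn1a and Phlda3 were called lower in KO+Rescue than in KO, where 1.83% of all genes were called. In KO+Rescue against WT 1 of 10 was called at each stage, Trp53 lower in mESC (18.2% of all genes called) and Cdkn1a lower at day 2 (11.1%).

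**Figure D4:**
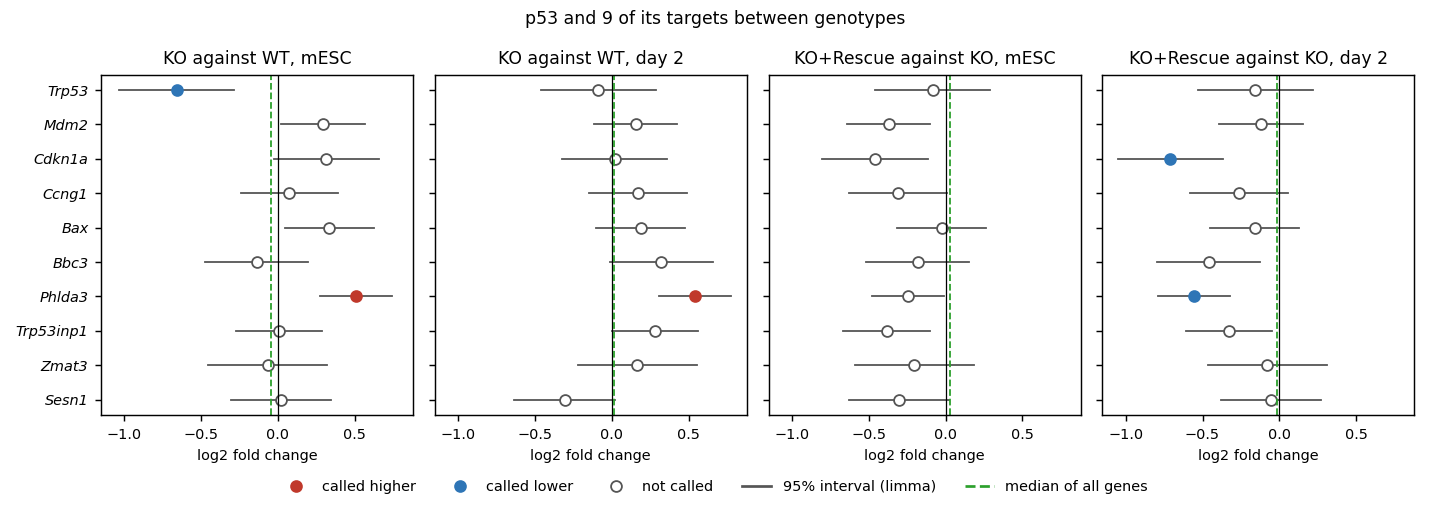
Log2 fold change of KO against WT and of KO+Rescue against KO at both stages, with 95% intervals of the limma fit. Filled red and blue points are genes called higher and lower, open points were not called, and the dashed green line is the median of all tested genes. In both right-hand panels all 10 points lie below 0.

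The 10 genes lay to one side of 0 in KO+Rescue against KO. All 10 changes were negative in mESC, with a median of -0.27 and a range of -0.46 to -0.03, and all 10 were negative at day 2, with a median of -0.21 and a range of -0.71 to -0.05. Over all tested genes 46.1% and 52% were negative, with medians of 0.03 and -0.02. With edgeR, with DESeq2 and with equal totals all 10 also stayed negative at both stages. Leaving out 1 library turned the smallest of these changes positive, Bax in mESC (up to 0.06) and Sesn1 (up to 0.09) and Zmat3 (up to 0.04) at day 2.

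Trp53 RNA was highest in WT mESC. WT mESC libraries A and B held 16586 and 11933, those of KO mESC 9340 and 8506, and those of KO+Rescue mESC 8851 and 8005. At day 2 it was 8116 and 5963 in WT, 6795 and 6314 in KO, and then 5648 and 6109 in KO+Rescue. Both WT mESC libraries lay above all others, and WT library A lay far above library B, while at day 2 the WT pair overlapped the other genotypes. In mESC the log2 difference from WT was -0.66 ± 0.17 (SE, limma, adjusted p = 0.0326) in KO and -0.74 ± 0.17 (adjusted p = 0.0173) in KO+Rescue. The KO call was lost without WT library A (-0.42, adjusted p = 0.266), without KO library A (-0.73, adjusted p = 0.0879) and without KO library B (-0.59, adjusted p = 0.224). With the value unchanged it was also lost without either day 2 library of KO or KO+Rescue (adjusted p from 0.0562 to 0.0567), without the filter on low values (adjusted p = 0.0662), without a trend in the prior variance (adjusted p = 0.0898) and with only these 2 groups fitted (adjusted p = 0.121). The KO+Rescue call was lost without WT library A (-0.50, adjusted p = 0.157), without KO+Rescue library B (-0.67, adjusted p = 0.150), without the trend (adjusted p = 0.0620) and with only 2 groups fitted (adjusted p = 0.0786).

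The genes around Trp53 also stood lower outside WT. In KO against WT mESC the 143 other tested genes within 5 Mb of Trp53 (chr11:69580348-69591873 in GRCm38) had a median log2 change of -0.28, close to the -0.27 of the whole chromosome. Wrap53, a neighbouring gene on the other strand that is needed for telomerase and lies 98 bases from Trp53 in this annotation, was 2095 and 1861 in WT mESC, 1625 and 1427 in KO mESC, and then 1555 and 1382 in KO+Rescue mESC. Its KO change of -0.37 ± 0.15 did not pass the test (limma, adjusted p = 0.125). The reads of Wrap53 and Trp53 lie on different strands, and the strand setting of the counting is not given in the sources used here.

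With stage Trp53 fell 2.02-fold in WT, by 1.02 ± 0.17 on the log2 scale (limma, adjusted p = 0.00031). It fell by 0.44 ± 0.17 in KO (adjusted p = 0.0404) and by 0.52 ± 0.17 in KO+Rescue (adjusted p = 0.0206), and in each genotype the mESC and day 2 libraries did not overlap. The difference between the KO and WT stage changes, 0.57 ± 0.24, did not pass the test (adjusted p = 0.345). The KO call was lost when any 1 of its 4 libraries was left out (-0.51 to -0.38, adjusted p from 0.0802 to 0.176) or either KO+Rescue library of day 2 (adjusted p = 0.0573 and 0.0572), without the filter (adjusted p = 0.0683) and without the trend (adjusted p = 0.0862). The KO+Rescue call was lost without mESC library A (-0.45, adjusted p = 0.103) and without day 2 library A (-0.46, adjusted p = 0.115) or B (-0.58, adjusted p = 0.0555), and without the trend (adjusted p = 0.0540). With equal totals the KO and KO+Rescue changes were -0.11 and -0.15 (adjusted p = 0.707 and 0.587), against a median of all genes of 0.35 and 0.34.

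Mdm2, the ubiquitin ligase that p53 induces and that destroys p53, was called in no comparison by the main limma fit. It was 6134 and 7078 in WT mESC, 8163 and 7991 in KO mESC, and then 6668 and 5850 in KO+Rescue mESC. At day 2 it was 7089 and 7893 in WT, 8410 and 8256 in KO, and then 8081 and 7274 in KO+Rescue. Both KO libraries lay above those of the other genotypes at each stage, but the log2 difference from WT, 0.29 ± 0.13 in mESC and 0.16 ± 0.13 at day 2, did not pass the test (limma, adjusted p = 0.146 and 0.565). The same held for KO+Rescue against KO in mESC, -0.37 ± 0.13 (adjusted p = 0.195). The stage change was 0.18 ± 0.13 in WT cells, 0.05 ± 0.13 in KO and 0.30 ± 0.13 in KO+Rescue, none of them called (adjusted p = 0.240, 0.771 and 0.0590). With equal totals it was called in all 3, at 0.42, 0.38 and 0.66 (adjusted p = 0.0374, 0.0469 and 0.00218), against a median of all genes of 0.21, 0.35 and 0.34. The KO+Rescue stage change was also called with edgeR (0.35, adjusted p = 0.0486), without KO+Rescue mESC library A (0.39, adjusted p = 0.0461) and without either WT mESC library (adjusted p = 0.0452 and 0.0450).

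Cdkn1a encodes p21, the inhibitor of cyclin-dependent kinases through which p53 halts the cell cycle. It was 2529 and 2198 in WT mESC, 3331 and 2579 in KO mESC, and then 2284 and 1989 in KO+Rescue mESC. At day 2 it was 3927 and 3088 in WT, 3760 and 3315 in KO, and then 2108 and 2213 in KO+Rescue. The KO+Rescue libraries at day 2 overlapped those of KO+Rescue mESC and lay below all 4 libraries of the other genotypes, which overlapped each other.

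The day 2 difference in Cdkn1a was -0.71 ± 0.16 against KO (limma, adjusted p = 0.0412) and -0.69 ± 0.16 against WT (adjusted p = 0.0168), folds of 0.612 and 0.620. The first call was lost when any 1 of the 4 libraries was left out (-0.80 to -0.62, adjusted p from 0.157 to 0.387) or any mESC library of KO or KO+Rescue (adjusted p from 0.0503 to 0.0513), with equal totals (-0.80, adjusted p = 0.0962), without the filter on low values (adjusted p = 0.0756) and without the trend (adjusted p = 0.118). The second was lost without WT library A (-0.52, adjusted p = 0.114), KO+Rescue library A (-0.65, adjusted p = 0.119) or KO+Rescue library B (-0.72, adjusted p = 0.0929), without the trend (adjusted p = 0.0625) and with 2 groups fitted (adjusted p = 0.0528). In mESC KO+Rescue against KO was -0.46 ± 0.16 with no overlap of the libraries, which did not pass the test (adjusted p = 0.201). Cdkn1a rose 1.48-fold with stage in WT, by 0.56 ± 0.16 on the log2 scale (adjusted p = 0.00951), a call lost without mESC library B (0.46, adjusted p = 0.0643) or day 2 library A (0.39, adjusted p = 0.0886) and with 2 groups fitted (adjusted p = 0.0580). The change was 0.27 ± 0.16 in KO (adjusted p = 0.160) and 0.02 ± 0.16 in KO+Rescue (adjusted p = 0.924), and with equal totals 0.61 in KO (adjusted p = 0.0274).

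Ccng1, the cyclin that brings a phosphatase to Mdm2, was among the most abundant of the 10. It was 14900 and 19232 in WT mESC, 17001 and 18710 in KO mESC, and then 13885 and 14975 in KO+Rescue mESC, and 20615 and 23403, 23903 and 25515, and 21088 and 20140 in the same order at day 2. In each genotype both day 2 libraries lay above both mESC libraries. It rose by 0.38 ± 0.15 in WT cells, 0.47 ± 0.15 in KO and 0.52 ± 0.15 in KO+Rescue on the log2 scale (limma, adjusted p = 0.0471, 0.0147 and 0.00914). The WT call was lost without mESC library A (0.19, adjusted p = 0.327) or day 2 library B (0.28, adjusted p = 0.188), with edgeR (0.33, adjusted p = 0.0832), and without any 1 library of KO or KO+Rescue (adjusted p from 0.0501 to 0.0692). It was also lost without the filter on low values (adjusted p = 0.0770), without the trend (adjusted p = 0.0692) and with 2 groups fitted (adjusted p = 0.202). The KO call was lost without mESC library A (0.40, adjusted p = 0.104) or day 2 library B (0.42, adjusted p = 0.0895), and the KO+Rescue call without mESC library A (0.46, adjusted p = 0.0503) or day 2 library A (0.48, adjusted p = 0.0625). Between genotypes its changes were not called, and KO+Rescue against KO was -0.31 ± 0.15 in mESC and -0.26 ± 0.15 at day 2 (adjusted p = 0.395 and 0.397).

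Among the genes of cell death Bbc3 rose most with stage. Bbc3 encodes PUMA, which binds the anti-apoptotic BCL2 proteins. It was 445 and 367 in WT mESC, 396 and 341 in KO mESC, and then 350 and 299 in KO+Rescue mESC. At day 2 it was 1146 and 1078 in WT, 1508 and 1283 in KO, and then 1021 and 1000 in KO+Rescue. Every day 2 library lay above every mESC library, with KO highest and KO+Rescue lowest at day 2. The rise was 2.75-fold in WT cells, 3.78-fold in KO and 3.12-fold in KO+Rescue (limma, adjusted p = 5.8e-06, 3.6e-07 and 1.5e-06), and it was called under every alternative run.

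At day 2 the Bbc3 difference between KO and WT was 0.32 ± 0.15 on the log2 scale and that between KO+Rescue and KO -0.46 ± 0.15, neither called (limma, adjusted p = 0.291 and 0.154). The second was called when only these 2 groups were fitted (adjusted p = 0.0223). The difference between the KO and WT stage changes was 0.46 ± 0.22 (adjusted p = 0.401).

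Bax, the pore-forming executioner of mitochondrial apoptosis, was called in no comparison by the main limma fit. It was 12069 and 13429 in WT mESC, 15686 and 16421 in KO mESC, and then 14893 and 16690 in KO+Rescue mESC, and 13391 and 13762, 15893 and 15038, and 12573 and 15236 in the same order at day 2. Both WT mESC libraries lay below the 4 others, and at day 2 KO+Rescue spanned the WT pair and reached into the KO pair. The mESC difference from WT was 0.33 ± 0.13 in KO and 0.31 ± 0.13 in KO+Rescue, neither called (limma, adjusted p = 0.125 and 0.121). The stage changes were 0.09, -0.05 and -0.19 in WT, KO and KO+Rescue, each ± 0.13 and none called, and with equal totals the last pair turned to 0.28 and 0.18.

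Phlda3, which restrains the survival kinase AKT, was the only gene of the 10 called in KO against WT at both stages. It was 1827 and 1721 in WT mESC, 2503 and 2533 in KO mESC, and then 2111 and 2135 in KO+Rescue mESC. At day 2 it was 3294 and 3245 in WT, 4968 and 4574 in KO, and then 3139 and 3354 in KO+Rescue. Libraries of a group lay close together, KO lay above both other genotypes at each stage, and KO+Rescue lay between them in mESC and overlapped WT at day 2.

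KO exceeded WT in Phlda3 by 0.51 ± 0.11 in mESC and by 0.54 ± 0.11 at day 2 on the log2 scale, folds of 1.42 and 1.46 (limma, adjusted p = 0.0131 and 0.0111). The mESC call was lost without KO library A (0.51, adjusted p = 0.0721) or B (0.50, adjusted p = 0.114), the day 2 call without KO library A (0.48, adjusted p = 0.131) or B (0.60, adjusted p = 0.0594). With equal totals the changes were 0.30 and 0.44 (adjusted p = 0.199 and 0.144), beside a median of all genes of -0.25 and -0.09, and with 2 groups fitted both calls were lost too (adjusted p = 0.107 and 0.0893). Summed fibroblast, mesendoderm and primitive endoderm markers were likewise highest in KO at day 2, though not every marker was. Col1a1 (94.2 in WT, 38.6 in KO) and Mixl1 (30.6 and 19.3) were highest in WT. In KO the fibroblast sum was mostly Thy1 (1025) and Dcn (380), and the mesendoderm sum mostly Eomes (311). The part of such cells in this difference was not tested. The KO+Rescue difference from KO was -0.25 ± 0.11 in mESC (adjusted p = 0.348) and -0.55 ± 0.11 at day 2 (adjusted p = 0.0224). The latter call was lost when any 1 of the 4 libraries was left out (-0.61 to -0.50, adjusted p from 0.116 to 0.287) or either KO mESC library (adjusted p = 0.0532 and 0.0531), with equal totals (-0.64, adjusted p = 0.0586) and without the trend (adjusted p = 0.0563). The difference between the 2 stages in this change, -0.31 ± 0.15, did not pass the test (adjusted p = 0.575). Against WT, KO+Rescue differed by 0.26 ± 0.11 in mESC and -0.01 ± 0.11 at day 2 (adjusted p = 0.109 and 0.961).

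Phlda3 rose with stage in every genotype, 1.84-fold in WT cells, 1.89-fold in KO and 1.53-fold in KO+Rescue (limma, adjusted p = 2.1e-05, 1.1e-05 and 0.00036). These calls held under every alternative run. The 82 other tested genes within 5 Mb of Phlda3 (chr1:135766085-135769134) had a median KO change of 0.02 in mESC and 0.05 at day 2.

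Trp53inp1, which supports p53-dependent death and autophagy, was 5754 and 6429 in WT mESC, 6193 and 6030 in KO mESC, and then 4590 and 4782 in KO+Rescue mESC. At day 2 it was 7134 and 7673 in WT, 8118 and 9962 in KO, and then 7613 and 6751 in KO+Rescue. The KO+Rescue mESC libraries lay below all others, and at day 2 the KO libraries lay above all others. It rose with stage by 0.56 ± 0.13 in KO and 0.61 ± 0.13 in KO+Rescue on the log2 scale (limma, adjusted p = 0.00255 and 0.00135). In WT the change was 0.28 ± 0.13 (adjusted p = 0.0851), and the difference between the KO and WT stage changes was 0.27 ± 0.18, not called (adjusted p = 0.573). With equal totals the WT change was 0.52 (adjusted p = 0.0108).

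In mESC Trp53inp1 in KO+Rescue was -0.38 ± 0.13 from both KO and WT on the log2 scale, without a call (limma, adjusted p = 0.195 and 0.0604). The difference from WT was called with edgeR (-0.44, adjusted p = 0.0467), DESeq2 (-0.38, adjusted p = 0.0451) and equal totals (-0.71, adjusted p = 0.00758), and without either WT library of day 2 (adjusted p = 0.0484 and 0.0485). With equal totals 5 of the 10 genes, Trp53, Ccng1, Trp53inp1, Sesn1 and Bbc3, were called lower in KO+Rescue than in WT mESC, where the median of all genes was -0.38.

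Zmat3, an RNA-binding protein that p53 induces, rose in all 3 genotypes. It was 1440 and 1097 in WT mESC, 1344 and 1072 in KO mESC, and then 1079 and 1006 in KO+Rescue mESC, and 2683 and 1971, 2385 and 2794, and 2575 and 2320 in the same order at day 2. Every day 2 library lay above every mESC library, and within a stage the genotypes overlapped, apart from KO+Rescue below WT in mESC. The rise was 1.83-fold in WT cells, 2.15-fold in KO and 2.34-fold in KO+Rescue (limma, adjusted p = 0.00129, 0.00017 and 7.3e-05), and was called under every alternative run.

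Sesn1, which lowers mTORC1 signalling and oxidative stress, was the only one of the 9 targets called lower with stage. It was 1342 and 1484 in WT mESC, 1435 and 1429 in KO mESC, and then 1177 and 1143 in KO+Rescue mESC, and 887 and 1166, 797 and 849, and 875 and 718 in the same order at day 2. In each genotype the day 2 libraries lay below the mESC libraries, and WT library B at day 2 lay close to the KO+Rescue mESC libraries. Sesn1 fell by 0.47 ± 0.15 in WT, by 0.80 ± 0.15 in KO and by 0.55 ± 0.15 in KO+Rescue on the log2 scale (limma, adjusted p = 0.0188, 0.00057 and 0.00734). The WT call was lost without mESC library B (-0.40, adjusted p = 0.0942) or day 2 library A (-0.28, adjusted p = 0.189) or with 2 groups fitted (adjusted p = 0.114), and the KO+Rescue call without day 2 library B (-0.41, adjusted p = 0.0904). With equal totals the WT and KO+Rescue changes were -0.24 and -0.18 (adjusted p = 0.286 and 0.396).

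The test of a different stage change between genotypes called none of the 10. In the interaction of KO and stage 0 of 10 were called (limma, 1.13% of all genes), with 1, Trp53, at an unadjusted p under 0.05, and edgeR and DESeq2 called 0, with 2 and 1 at an unadjusted p under 0.05. In the interaction of KO+Rescue against KO with stage 0 of 10 were called (limma, 0.0847% of all genes), with 0 at an unadjusted p under 0.05 by limma, edgeR or DESeq2.

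Further p53 targets were read from a list of 48 genes, of which 47 were tested and Casp1 was at 0 in every library. Calls of single genes in this list and the lists below rest on the main limma fit. Unlike those of the members, they were not followed gene by gene through the alternatives or with a library left out. In KO against WT 2 were called higher and 3 lower in mESC, and 6 higher and 5 lower at day 2, that is 5 and 11 of 47 beside 9.48% and 5.21% of all genes, with medians of -0.01 and 0.07. With equal totals this split was 0 higher and 6 lower in mESC and 2 higher and 5 lower at day 2. Comparing KO+Rescue with KO, 0 were higher and 4 lower in mESC, and 1 higher and 4 lower at day 2 (1.51% and 1.83% of all genes called), with 31 and 34 of the 47 changes negative and medians of -0.20 and -0.26, beside 0.03 and -0.02 over all genes. Against WT, KO+Rescue had 1 higher and 9 lower in mESC and 2 higher and 6 lower at day 2, beside 18.2% and 11.1% of all genes, and with equal totals 0 higher and 19 lower and 0 higher and 7 lower. The interactions called 0 of the 47 (limma), with 8 and 10 at an unadjusted p under 0.05, 0 by edgeR, and 1 (KO and stage) and 0 by DESeq2.

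**Figure D5:**
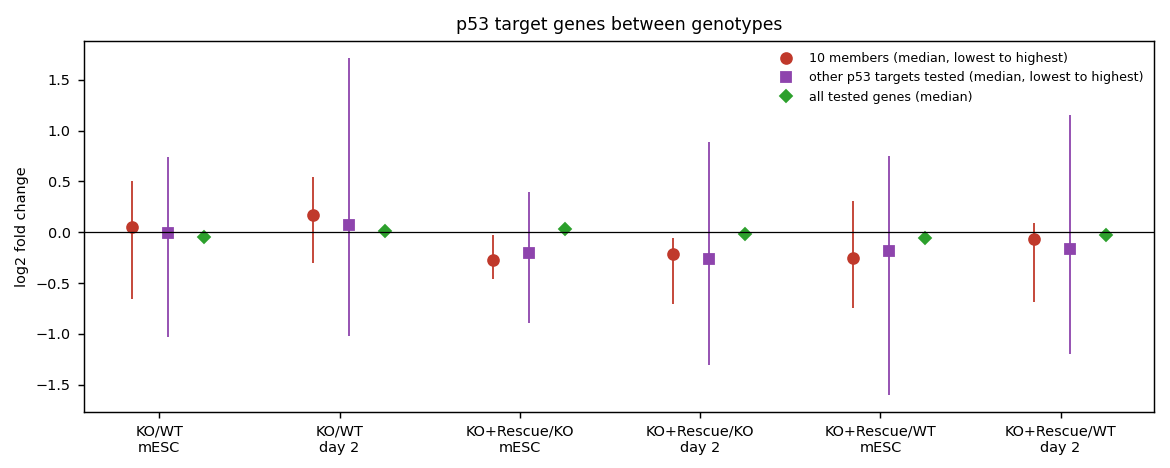
Log2 fold changes of the 10 genes and of the 47 other p53 targets tested, by comparison between genotypes. Points are medians, lines run from the lowest to the highest gene, and green diamonds are the medians of all tested genes. In KO+Rescue against KO the medians of the lists lie at -0.27 and -0.20 in mESC and at -0.21 and -0.26 at day 2.

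Targets of the cell death group moved in both directions in KO. Aen, a nuclease induced by p53, was 3620 and 3644 in WT and 2435 and 2259 in KO mESC, and lower in KO at both stages (-0.63 ± 0.11 and -0.58 ± 0.11, limma, adjusted p = 0.0053 and 0.00985). It was also lower in KO+Rescue than in WT (-0.99 ± 0.11 and -0.58 ± 0.11, adjusted p = 0.00034 and 0.00733). Pmaip1 (NOXA), which acts beside PUMA, was 9797 and 8964 in WT and 12900 and 14882 in KO at day 2, higher by 0.56 ± 0.12 (adjusted p = 0.0148). The death receptor gene Fas was 15.1 and 21.7 in WT and 60.6 and 63.6 in KO at day 2, higher by 1.72 ± 0.42 (adjusted p = 0.0336), at a level near the filter on low values. Eda2r was lower in KO at day 2 (-0.68 ± 0.15, adjusted p = 0.0167) and higher in KO+Rescue than in KO (0.89 ± 0.15, adjusted p = 0.0101). The part in these day 2 values of the cell types whose summed markers were highest in KO was not tested.

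Targets of metabolism and stress were 18 of the 47 tested. They gave 3 of the 4 calls between KO+Rescue and KO in mESC and 3 of the 5 at day 2 (1.51% and 1.83% of all genes called). Ak1, an adenylate kinase, was 2900 and 2810 in KO, then 1761 and 1480 in KO+Rescue mESC, and 2174 and 1868 against 849 and 808 at day 2. Its changes were -0.82 ± 0.17 and -1.28 ± 0.17 (limma, adjusted p = 0.0331 and 0.0023). Rap2b, a small GTPase, was 808 and 846 in WT mESC, 1184 and 1133 in KO mESC, and then 792 and 752 in KO+Rescue mESC. It was higher in KO than WT at both stages (0.49 ± 0.13 and 0.60 ± 0.13, adjusted p = 0.0297 and 0.0148) and lower in KO+Rescue than KO in mESC (-0.59 ± 0.13, adjusted p = 0.0361). Dcxr, a carbonyl reductase, was 567 and 428 in WT, 1010 and 993 in KO, and then 354 and 460 in KO+Rescue at day 2, higher in KO by 1.02 ± 0.18 (adjusted p = 0.00547) and lower in KO+Rescue than KO by -1.31 ± 0.18 (adjusted p = 0.0030). In KO against WT 1 of the 18 was called higher and 2 lower in mESC (9.48% of all genes), and 3 higher and 2 lower at day 2 (5.21%). Gls2, a glutaminase, was lower at both stages, with 1597 and 1726 in WT against 956 and 1141 in KO mESC (-0.67 ± 0.16, limma, adjusted p = 0.0229) and -1.02 ± 0.16 at day 2 (adjusted p = 0.00254). Pltp was lower in KO mESC (-0.73 ± 0.18, adjusted p = 0.0233) and Pml in KO at day 2 (-0.92 ± 0.18, adjusted p = 0.00861).

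Of 10 arrest targets 1 was called between KO+Rescue and KO at each stage, where 1.51% (mESC) and 1.83% (day 2) of all genes were called. Plk2 was 1332 and 1234 in KO, then 705 and 671 in KO+Rescue mESC (-0.90 ± 0.13, limma, adjusted p = 0.00685), and Btg2 1898 and 1877 against 1275 and 1280 at day 2 (-0.56 ± 0.13, adjusted p = 0.0446). Sfn, which encodes 14-3-3 sigma, was lower in KO than WT at day 2 (-0.85 ± 0.12, adjusted p = 0.00126). Of 8 DNA repair targets 1, Rrm2b, was called in KO against WT mESC (9.48% of all genes), higher by 0.74 ± 0.22 (limma, adjusted p = 0.0478). There edgeR called 0 higher and 1 lower. At day 2 (5.21% of all genes) 0 were called by limma, edgeR or DESeq2, with 0 at an unadjusted p under 0.05 in the limma fit. Between KO+Rescue and KO 0 of the 8 were called at either stage by limma, edgeR or DESeq2, with 1 at an unadjusted p under 0.05 at each stage in the limma fit.

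With stage the wider list was split as well. In WT 16 of 47 targets rose and 12 fell, in KO 23 and 12, and in KO+Rescue 21 and 13, with medians of 0.12, 0.23 and 0.26. These were 28, 35 and 34 of 47, where 51.9%, 60.1% and 58.2% of all genes were called. Pmaip1 rose 6.32-fold in WT, from 1512 and 1454 to 9797 and 8964, and Ddit4, an inhibitor of mTORC1, 7.84-fold, from 888 and 896 to 6508 and 7532 (limma, adjusted p = 3.2e-09 and 2.4e-09). Sfn fell by 2.89 ± 0.12 on the log2 scale (adjusted p = 2.4e-09) and Tigar, which limits glycolysis, by 1.92 ± 0.18 (adjusted p = 2.1e-06). With equal totals the splits were 19 higher and 8 lower in WT, 26 and 4 in KO cells, and 25 and 9 in KO+Rescue, against a median of all genes of 0.21, 0.35 and 0.34.

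Regulators of p53 gave no call in KO against WT or KO+Rescue against KO, with 0 of 21 tested in each of the 4 comparisons (limma). In KO against WT in mESC and at day 2, then KO+Rescue against KO, 9.48%, 5.21%, 1.51% and 1.83% of all genes were called. In that order 8, 3, 2 and 6 of the 21 had an unadjusted p under 0.05 (limma). Likewise edgeR called 0, and DESeq2 called 0 in mESC and 1 in each day 2 comparison. Against WT, Trp53bp1 (-0.69 ± 0.14, limma, adjusted p = 0.00909) and Ppm1d (-0.43 ± 0.13, adjusted p = 0.0373) were lower in KO+Rescue mESC, where 18.2% of all genes were called. Chek1 was higher in KO+Rescue at day 2 (0.51 ± 0.13, adjusted p = 0.0302), where 11.1% were called. With stage 6 of the 21 rose and 7 fell in WT, where 51.9% of all genes were called, among them the deacetylase gene Sirt1, which fell by 1.22 ± 0.12, and the family member Trp73, which rose 4.13-fold. Trp63 was below the filter, with a mean of 1.55.

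Of 14 cell cycle genes that p53 lowers through p21, 0 were called in KO against WT or in KO+Rescue against KO at either stage (limma, edgeR and DESeq2). In the limma fits 3, 0, 1 and 1 of them had an unadjusted p under 0.05. The share of all genes called was 9.48%, 5.21%, 1.51% and 1.83% in the same order. Relative to WT mESC, KO+Rescue had 3 of the 14 called, all higher, where 18.2% of all genes were called, and with equal totals 1 higher and 4 lower. Cenpa, Mad2l1 and Cdk1 were higher by 0.75 ± 0.21, 1.02 ± 0.31 and 0.58 ± 0.19 (adjusted p = 0.0297, 0.0383 and 0.0487). At day 2, where Cdkn1a was lower in KO+Rescue, 0 of the 14 were called against WT by limma (11.1% of all genes) and by edgeR. These 2 tools had 2 and 1 of the 14 at an unadjusted p under 0.05, and DESeq2 called 1. In the BCL2 family 11 of 12 genes were tested, and 1 was called in KO against WT at each stage (9.48% and 5.21% of all genes), Bmf lower in mESC (-0.56 ± 0.16, adjusted p = 0.0429) and Hrk higher at day 2. Hrk, which like PUMA opposes BCL2 proteins, was 159 and 107 in WT, 524 and 562 in KO, and then 255 and 209 in KO+Rescue at day 2, higher in KO than WT by 2.05 ± 0.43 (adjusted p = 0.0144). Bmf, of the same class, was 793 and 768 in KO, then 446 and 426 in KO+Rescue, at day 2, lower by -0.84 ± 0.16 (adjusted p = 0.019). With stage 7 of the 11 rose and 1 fell in WT, where 51.9% of all genes were called, led by the anti-apoptotic Bcl2 at 12.7-fold.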

How the data were processed

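RNA-seq read pairs were, per the study's methods and the labels, trimmed with Trimmomatic, aligned to mm10 with STAR, counted per gene with featureCounts and divided by DESeq2 size factors by the authors (versions are not given in the sources used here). The deposited signal values are these normalised counts. All of the 431712 values gave whole reads within 0.001 when the size factors were undone, and 34100 was the highest count of a member. The labels describe a directional library kit.

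log2(normalised count + 1) of the 15341 genes with a mean of at least 10 was fitted over all 12 libraries and 6 groups with limma 3.58.1 (R 4.3.3), with a trend in the prior variance (residual degrees of freedom 6, prior 6.92). P-values of the 11 contrasts were adjusted over all tested genes (Benjamini-Hochberg), called at 0.05, and given as log2 change ± standard error. This is the main limma fit. A log2 change on this scale understates that of low genes. edgeR 4.0.16 and DESeq2 1.42.0 on the recovered counts, equal library totals, other pseudocounts and filters, a fit without the trend, fits of 2 groups, a block by column letter and leaving out each library were the alternatives. The scripts were tested on simulated data. Counting error is small at this depth, and 10334 of 35976 genes had no reads.

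The members and lists were chosen with earlier results of these data known. Named beside the members were Proser1, Wrap53 and, from each further list, some of the up to 4 called genes per contrast with the smallest adjusted p. Not all such genes are named. Cop1 was found under its older symbol Rfwd2, and Casp1 and Bcl2a1a were at 0. Exon lengths came from GENCODE vM39 (GRCm39), coordinates and promoter windows from RefSeq on GRCm38.p6, which is mm10. Levels per length therefore rest on another build than the counts.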

Additional observations from a re-analysis of the deposited data

How the results depend on the processing

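Of 28 calls among the 110 changes of a member in a contrast, 13 held under all 10 alternatives and with any library of the compared groups left out, namely Bbc3, Zmat3 and Phlda3 with stage in all 3 genotypes, Trp53inp1 with stage in KO and KO+Rescue, Trp53 with stage in WT and Sesn1 with stage in KO. No call reversed. With 2 libraries a group, leaving 1 out assumed that the lone library varied like the other groups. Beside the 2 members called in KO against WT mESC, 1 was called with equal totals, 1 without the filter, 1 without the trend, 0 with 2 groups fitted and 0 to 2 with a library of the compared groups left out. Beside the 1 at day 2, equal totals and 2 groups gave 0, and a library left out 0 to 1. Beside the 2 in KO+Rescue against KO at day 2, equal totals and no trend gave 0, no filter 1, 2 groups 3, and a library of either group left out 0, while one of another group left out gave 0 to 2. Beside the 1 in KO+Rescue against WT mESC, edgeR and DESeq2 gave 2, equal totals 5, no trend and 2 groups 0, and a library of either group left out 0 to 1 (2 without either WT library of day 2); at day 2 no trend and 2 groups gave 0 and a library left out 0 to 1. With stage, 2 groups gave 4 in WT. The cause of these differences was not tested. Fits with groups or libraries left out also had fewer samples.

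No label says what the letters A and B share, and 6 of 15 correlations between groups of the deviations were over 0.1 (range -0.05 to 0.41). These 6 were all those among the mESC groups and WT at day 2 (0.12 to 0.41), and none involved KO or KO+Rescue at day 2. Without a label the letters were not taken to pair the samples, although the former groups varied together by letter. The replicate block raised the calls over all genes in KO against WT mESC from 1455 to 3657. With the replicate block 1 member, Cdkn1a (adjusted p = 0.036), was called in KO+Rescue against KO mESC, and 3 in KO+Rescue against WT mESC, where Trp53inp1 (0.020) and Bax (0.044) joined Trp53. No other count of members called moved by over 1.5 times, though Bax in KO against WT mESC (0.038), Bbc3 in KO+Rescue against KO at day 2 (0.042) and, with stage, Mdm2 in KO+Rescue (0.031) and Trp53inp1 in WT (0.043) were called too.

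The sign turned in 28 of the 110 changes, none of them called, with absolute values up to 0.28. With equal totals, which put the median of all genes between -0.38 and 0.35, KO against WT turned to -0.14 for Ccng1, -0.20 for Trp53inp1 and -0.19 for Sesn1 in mESC and to -0.088 for Cdkn1a at day 2. KO+Rescue against WT turned to -0.020 for Bax and -0.069 for Phlda3 in mESC and to -0.16 for Mdm2, -0.17 for Bax and -0.11 for Zmat3 at day 2, and Bax with stage to 0.28 in KO and 0.18 in KO+Rescue. With edgeR, Trp53inp1 (-0.024) and Sesn1 (-0.0098) turned in KO against WT mESC and Phlda3 (0.026) in KO+Rescue against WT at day 2. With a library left out, KO against WT ran in mESC from -0.27 to 0.00026 for Bbc3, -0.11 to 0.26 for Ccng1, -0.051 to 0.094 for Sesn1, -0.073 to 0.087 for Trp53inp1 and -0.26 to 0.13 for Zmat3, and at day 2 from -0.15 to 0.19 for Cdkn1a, -0.31 to 0.14 for Trp53 and -0.056 to 0.39 for Zmat3. KO+Rescue against KO ran from -0.11 to 0.056 for Bax in mESC and from -0.20 to 0.090 for Sesn1 and -0.19 to 0.036 for Zmat3 at day 2. KO+Rescue against WT ran from -0.18 to 0.026 for Mdm2 in mESC, and at day 2 from -0.11 to 0.17 for Bax, -0.042 to 0.11 for Mdm2, -0.059 to 0.037 for Phlda3, -0.13 to 0.041 for Trp53inp1 and -0.13 to 0.31 for Zmat3. Cdkn1a with stage in KO+Rescue ran from -0.080 to 0.12. The KO interaction with stage ran from -0.090 to 0.28 for Ccng1 and -0.021 to 0.098 for Phlda3, and that of KO+Rescue from -0.27 to 0.0047 for Bax, -0.023 to 0.11 for Ccng1, -0.091 to 0.20 for Trp53inp1 and -0.037 to 0.29 for Zmat3. The order of levels per length in WT mESC was the same with the longest transcript of each gene, unlike those in the other groups.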
